A study of Mus musculus with 18 samples.

Results

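Chromatin accessibility at 38 interferon-stimulated genes, among them the guanylate-binding protein (Gbp) clusters, was described in naive CD4 T cells of 3 lymphoid organs. Accessibility was measured by ATAC-seq, a method that marks open DNA by the cuts of the Tn5 transposase, and is given here as peaks called separately in each of 18 libraries. The peaks of all libraries were merged into 33115 regions wherever they overlapped by 1 bp or more. A region was assigned by the protein-coding gene end nearest to its centre, where an end is either boundary of a gene. It belonged to a listed gene when that end was one of the gene's own and lay within 50 kb. By this rule 66 of the 33115 regions belonged to the list, and they fell to 30 of the 38 genes. The member farthest from its gene was the Ifi204 region at 35803.5 bp, and the next candidate beyond the limit was a Gbp6 region at 50715 bp with a peak in 3 libraries.

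The cells carried the labels naive CD4+ T, strain C57BL6/J, genotype WT and no treatment, and were used fresh. Sorting by Nr4a1-dsGFP, a destabilised fluorescent reporter of a gene that T cell receptor signals switch on, gave a fraction of low and one of high tonic receptor stimulation. Both fractions came from spleen and from mesenteric and axillary nodes in 3 biological replicates, which makes 6 groups of 3. All groups thus share strain, genotype label, cell type and lack of treatment. The sources used here do not give the age of the mice, the number of animals behind a library or how the reporter was carried. All p-values below therefore treat the libraries as independent samples, and part of the spread among them may be technical.

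Type I interferons bind a receptor on nearly every cell and activate the kinases Jak1 and Tyk2. These signal to the complex ISGF3, which holds Irf9 and binds a sequence called the interferon-stimulated response element (ISRE). Interferon gamma acts mainly through another sequence, the gamma-activated site (GAS). The genes so induced encode sensors of viral nucleic acid, enzymes and binding proteins that block viral replication, and feedback inhibitors, and naive T cells hold part of this programme at a low level without infection.

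To show what the promoters hold, stretches are printed for listed genes with the ISRE letters GAAANNGAAA, searched on both strands of RefSeq promoter windows (GRCm38.p6, 250 bases before to 50 after a gene start). Capitals mark the matches, and a match that lies on the opposite strand appears as its reverse complement. Rsad2, Bst2, Ifit1 and Gbp7 are shown because a peak covered their start in most or all libraries, Gbp2 because 9 libraries had one, and Isg15 and Ifit3 because no library had one. All stretches are upstream of the start and read 5′ to 3′ on the strand of the gene.
Rsad2, chr12:26456518-26456617, minus strand: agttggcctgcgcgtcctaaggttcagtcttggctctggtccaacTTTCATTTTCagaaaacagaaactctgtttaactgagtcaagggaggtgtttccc
Bst2, chr8:71537542-71537647, minus strand: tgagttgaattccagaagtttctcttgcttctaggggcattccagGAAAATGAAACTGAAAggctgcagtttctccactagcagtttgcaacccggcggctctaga
Ifit1, chr19:34640740-34640858, plus strand: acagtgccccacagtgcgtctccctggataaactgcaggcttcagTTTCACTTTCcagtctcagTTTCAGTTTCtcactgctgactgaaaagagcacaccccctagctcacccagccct
Gbp7, chr3:142530238-142530335, plus strand: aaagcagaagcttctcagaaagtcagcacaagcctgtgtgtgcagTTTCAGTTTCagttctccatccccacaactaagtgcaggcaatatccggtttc
Gbp2, chr3:142620559-142620658, plus strand: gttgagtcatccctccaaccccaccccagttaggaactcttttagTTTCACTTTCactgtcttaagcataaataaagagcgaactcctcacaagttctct
Isg15, chr4:156200830-156200941, minus strand: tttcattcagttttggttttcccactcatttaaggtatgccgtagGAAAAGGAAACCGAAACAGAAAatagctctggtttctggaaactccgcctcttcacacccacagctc
Ifit3, chr19:34583328-34583461, plus strand: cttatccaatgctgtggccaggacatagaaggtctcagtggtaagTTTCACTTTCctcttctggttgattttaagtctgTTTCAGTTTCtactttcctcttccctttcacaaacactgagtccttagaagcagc

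The promoters of the listed genes carried these letters more often than promoters at large. Of the 38 genes, 27 had a promoter window in the table, and 15 of those 27 (55.6%) held the ISRE letters, against 3.98% of 17274 protein-coding genes. The GAS letters TTCNNNGAA were found in 8 of the 27 genes (29.6%), against 9.02% of all. Only in Bst2 did a GAS match overlap an ISRE match. Among the listed genes the ISRE letters occurred in 3 of 7 genes with a start peak in all 18 libraries, in 6 of 11 with a start peak in some libraries, and in 7 of 14 with a start lacking a peak (a gene with several starts can count in more than 1 class). Over all promoter windows, 35.0% of those with the ISRE letters had a peak at the start in some library, against 44.2% of windows in general. These shares describe the list and were not tested, and a match is not a measured binding site.

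The position of the matches relative to the peaks differed from gene to gene. Of 22 ISRE matches, 11 in 9 genes lay inside a region with a peak. These included both matches of Bst2, which encodes tetherin, a protein that holds budding virus at the cell surface, and both of Ifit1, whose product binds viral RNA lacking host cap methylation. In Gbp3 the matches, at 45 and 39 bases before the first of 2 listed starts, were 213 and 207 bp from the nearest region, which covers the second start and had a peak in all 18 libraries. In Isg15, which encodes a ubiquitin-like modifier, 3 overlapping matches stood 2009 to 2021 bp from the nearest region, one assigned to the neighbouring gene Perm1. The 2 matches of Ifit3, a partner of Ifit1, were 12939 and 12973 bp from any region. The listed promoters were also poorer in CpG: the median window held 6 CpG dinucleotides, against 13 over all windows. Within the list the medians were 9, 7.5 and 2 for starts with a peak in all, some and no libraries, and over all windows 24, 21 and 5.

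**Figure D1:**
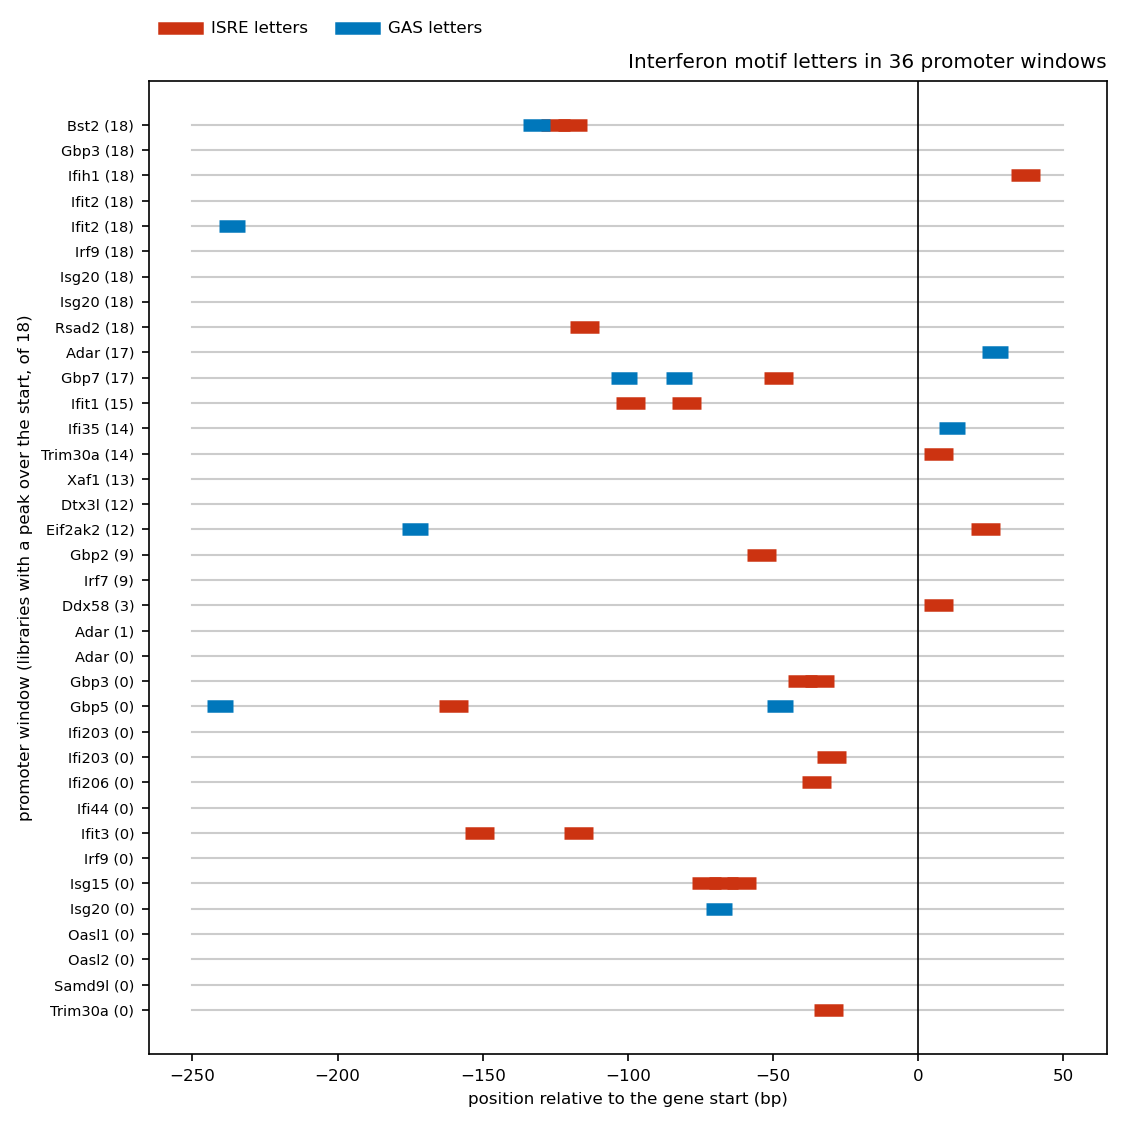
Positions of the ISRE letters (red) and GAS letters (blue) in the 36 promoter windows of 27 listed genes, in bp from the gene start, with windows ordered by the number of libraries with a peak over the start (in brackets, of 18). Red marks occur from the top of the plot (Bst2, 18 libraries) to the windows with no peak (Isg15, Ifit3), and they begin between -165 and 32 bp.

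The libraries held 14372 to 23129 peaks, and the relative depth, the reads of the genome background per 10 kb, ran from 8.48 in axillary low replicate 3 to 16.6 in the mesenteric high libraries. The estimated fragment length was 216 to 236 bp in 5 of the 6 axillary libraries and in spleen low replicate 3, and 161 to 176 bp in the other 12, so fragment length and the axillary organ cannot be told apart. The weakest called summit held 4 reads in every library, so the lack of a peak means that accessibility was not detectable at this depth, not that the site was closed. The sources used here do not say how reads mapping to several places were handled, and the Ifit, Gbp and Ifi200 (PYHIN) families hold close copies, so a missing peak there is uncertain. All 14 markers of naive CD4 T cells had a region and 7 of them a region in all 18 libraries, while the B cell markers Ms4a1, Cd79a, Cd79b and Blk had none. Of 7 myeloid markers 4 had a region and none in every library, and of 8 dendritic markers Flt3, Tcf4 and the listed gene Bst2 had a region in all 18. Of the CD8 T cell, natural killer, erythroid and stromal markers Cd8b1, Klrb1c and Klf1 had one in all 18.

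The regions of the interferon-stimulated genes were less often shared by every library than regions in general. A peak was present in all 18 libraries at 11 of the 66 regions (16.7%, against 26.4% of all regions) and in a single library at 17 (25.8%, against 19.0%). The median region had a peak in 9 libraries, against 8 over all regions, and was 374.5 bp wide, against 425 bp. Where a region covered a gene start, 7 of 18 were present in all libraries (38.9%), against 64.7% of such regions in the whole set. Of the 27 genes with a listed start, 7 had a start peak in all 18 libraries (25.9%, against 31.8% of all protein-coding genes), 11 in some libraries (40.7%, against 15.6%) and 9 in none (33.3%, against 52.5%). No test was made of these shares.

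At the 11 regions with a peak everywhere the median fold was close to that of all such regions, while their median rank was lower. The authors' fold enrichment, the height of the summit over the local background at a single position, averaged 7.0 to 11.7 by region with a median of 9.92, against a median of 10.2 over all 8756 regions present in every library. Rsad2, which encodes viperin, an enzyme that makes a chain-terminating nucleotide, was the highest with 11.7 ± 1.94 (SD, n = 18). Gbp3 followed with 11.5 ± 2.01, Irf9 with 10.5 ± 2.07, a region beside Dtx3l with 10.3 ± 1.21 and Ifih1 with 9.95 ± 1.07. These neighbours in the order differ by less than their SD. The lowest of the 11 was another Dtx3l region, 7440 bp from the gene, with 7.0 ± 0.90. Over all 8756 regions the average fold reached 21.2. Ranked by −log10 p within each library, the 11 had a median percentile of 62.0, against 71.1 over all 8756. These differences were not tested.

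**Figure D2:**
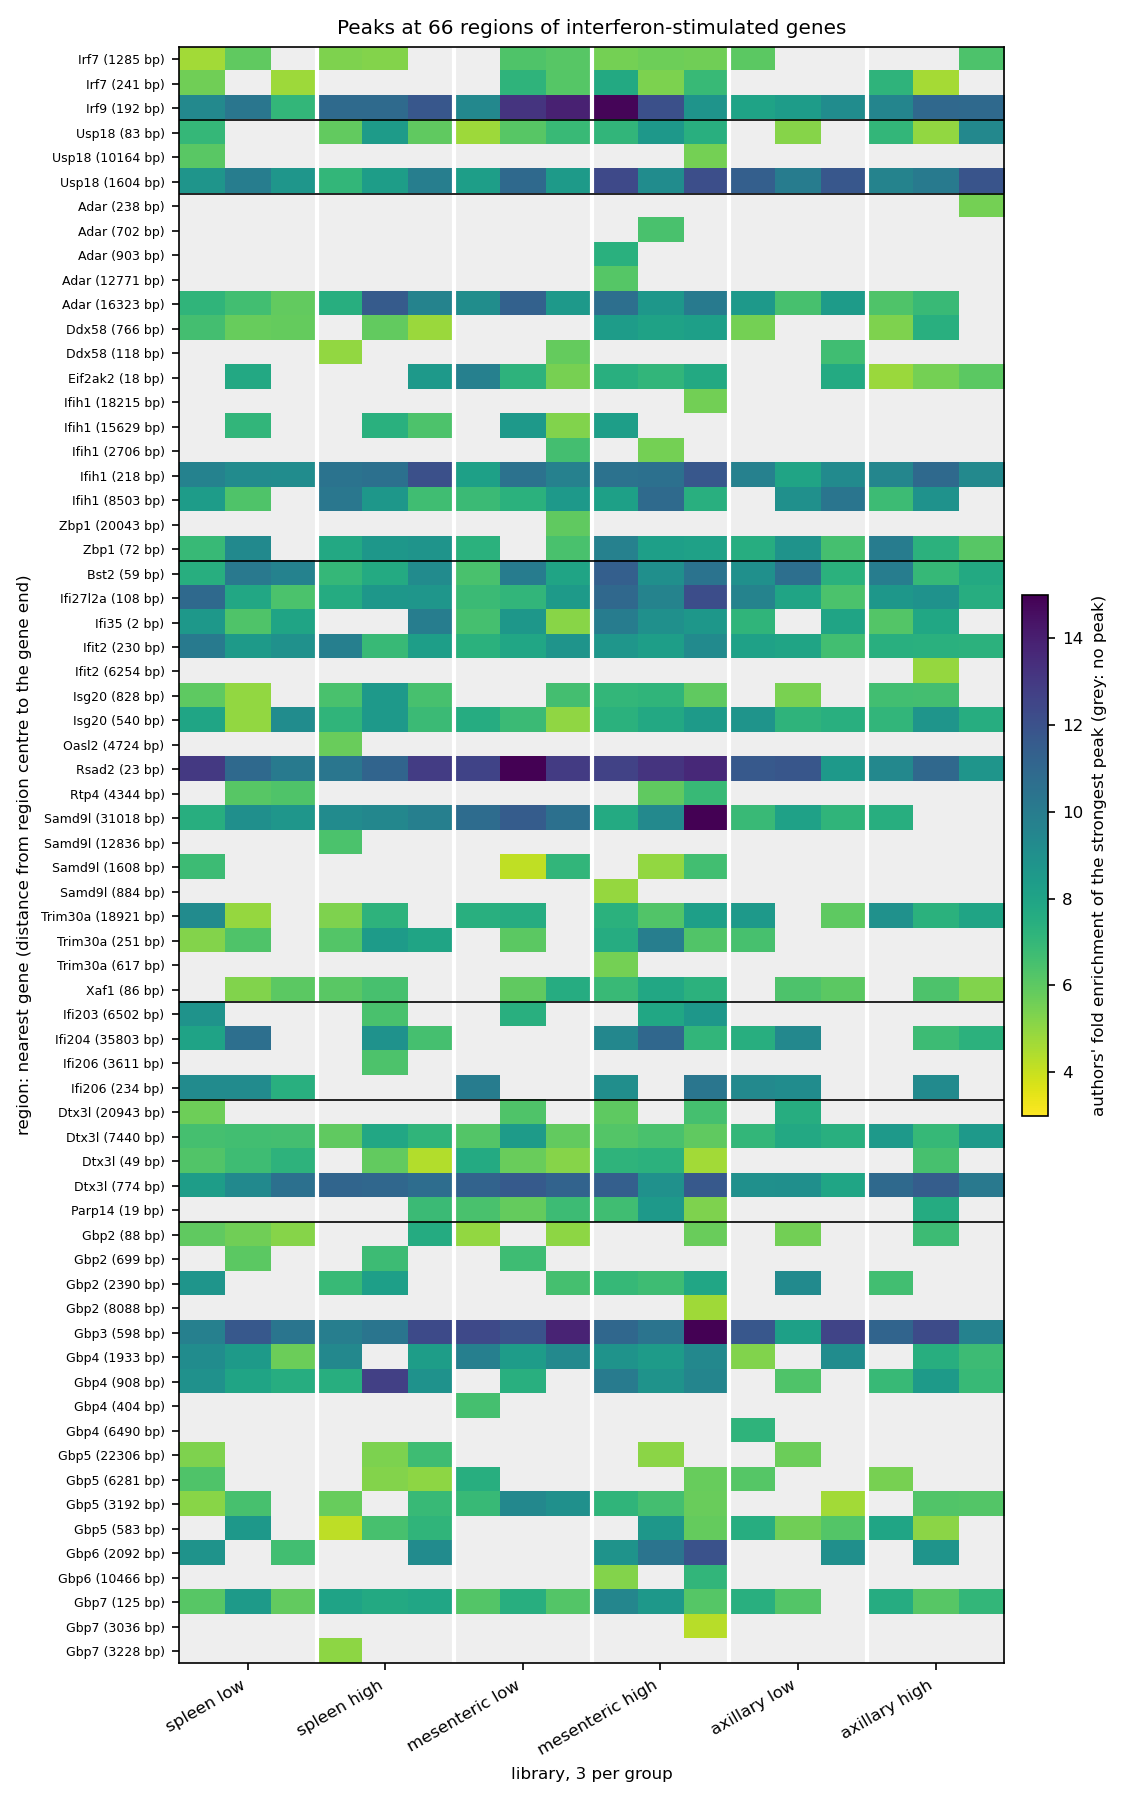
Peaks at the 66 regions (rows, grouped by role and labelled with the nearest gene and the distance of the region centre to the gene end) in the 18 libraries (columns, 3 per group), coloured by the authors' fold enrichment of the strongest peak, with grey where no peak was called and values above 15 in the darkest colour. The 11 fully coloured rows include Irf9, Rsad2, Ifih1 and Gbp3, and the mesenteric high columns hold the most peaks, 41 to 47 of 66.

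Of the transcription factors of the pathway, Irf9 had a region with a peak in every library and Irf7 did not. The Irf9 region (chr14:55603824-55604531, mm10) covers the start of the gene for the DNA-binding part of ISGF3 and had a peak in all 18 libraries. Irf7, the factor that amplifies interferon production, had a peak over its start (chr7:141265953-141266563) in 9 libraries: 2 of 3 spleen low, 0 of 3 spleen high, 2 of 3 mesenteric low, 3 of 3 mesenteric high, 0 of 3 axillary low and 2 of 3 axillary high. A second region inside Irf7, 1285.5 bp from the gene boundary on the side of its start, was present in 11 libraries.

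In the ISG15 system, Isg15 had no region and Usp18 had 3. Usp18 encodes the protease that removes Isg15 from proteins and restrains the interferon receptor. A region at 1 end of the gene (chr6:121245623-121246023) had a peak in 14 libraries, and a region 1604 bp beyond the other end (chr6:121272203-121272839) in all 18. The third, inside the gene, was present in 2 libraries.

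Among the nucleic acid sensors, the gene for the long double-stranded RNA sensor MDA5, Ifih1, had 5 regions and the strongest was at its start (chr2:62645612-62646461, all 18 libraries). A region 8503.5 bp outside Ifih1 was present in 15. Ddx58, which encodes the sensor RIG-I, had a start peak in only 3 libraries. A region inside the gene, centred 766.5 bp from that start (chr4:40238804-40239313), was present in 11. Dhx58, the third member of that helicase family, had no region. Eif2ak2, the double-stranded RNA kinase PKR, had a start peak in 12 libraries, with all 6 mesenteric libraries among them, and Zbp1, a sensor of left-handed nucleic acid, had a region at a gene end in 16. Adar, which edits double-stranded RNA, had a peak over an internal start (chr3:89730497-89731087) in 17 libraries, missing only in axillary high replicate 3, and 4 further regions in 1 library each.

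The antiviral effectors ranged from genes with a peak in every library, through genes with one in most, to genes with few or none. Start peaks in all 18 libraries were found at Rsad2 (chr12:26456200-26456750), at Bst2 (chr8:71537111-71537715), at Ifit2 (chr19:34550424-34551137), an RNA-binding relative of Ifit1, and at Isg20 (chr7:78913625-78914247), an RNA exonuclease. Ifi27l2a, a mitochondrial interferon-induced gene with no listed start, had a region 108 bp from an end of the gene (chr12:103443487-103444089) in all 18. Ifi35 had a start peak in 14 libraries, Trim30a in 14 and Xaf1, a proapoptotic partner of XIAP, in 13. Samd9l, a translation inhibitor, had no start peak, and its main region, 31018.5 bp away, was present in 16 libraries. Rtp4 had a region in 4 libraries and Oasl2 in 1. Ifit3, Oasl1 and Ifi44 had no region at all. Ifit1 counted as having none because the region over its start (chr19:34640565-34641048, present in 15 libraries with a fold of 8.08 ± 1.93) lies nearer to an end of its paralog Ifit1bl2. That region was singled out after its values were seen.

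The 3 PYHIN genes, relatives of the DNA sensor Aim2, had 4 regions and none in every library. The Ifi206 region, inside the gene 234 bp from its start and 84 bp from the ISRE match, had a peak in 9 libraries. Ifi204 had a distant region in 11 libraries and Ifi203 one in 5. Both listed starts of Ifi203 and the start of Ifi206 lacked a peak in all libraries.

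Dtx3l and Parp9, which encode a ubiquitin ligase and its partner and are read from a shared interval in opposite directions, lie next to the ADP-ribosyltransferase gene Parp14 on chromosome 16. Dtx3l had 4 regions, with a start peak (chr16:35938803-35939153) in 12 libraries. A region centred 774 bp upstream of the Dtx3l start (chr16:35939503-35940099), inside the annotated Parp9 gene, had a peak in all 18. Parp9 had no region of its own under the nearest-end rule. Parp14 had 1 region at an end of the gene (chr16:35871235-35871839), present in 8 libraries.

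The guanylate-binding proteins are large interferon-induced GTPases that coat the vacuoles of intracellular pathogens. Their 2 clusters had 18 regions, of which only the Gbp3 start region (chr3:142560221-142561008) had a peak in all 18 libraries. In the chromosome 3 cluster, Gbp7 had a start peak in 17 libraries, missing only in axillary low replicate 3, and Gbp2 in 9. Gbp5 had no peak over its start, and its 4 regions were present in 5, 7, 11 and 13 libraries. In the chromosome 5 cluster, Gbp4 had regions in 15 and 14 libraries at 1933 and 908.5 bp from an end of the gene. Gbp6 had a region inside the gene in 8 libraries, and Gbp9 had none. The median Gbp region was present in 7.5 libraries, against 8 over all regions and 12.5 for the 18 regions of the antiviral effectors. The medians were 3 for the nucleic acid sensors, 7 for the PYHIN genes and 11 for the transcription factors. They were 12 for the Parp and Dtx3l genes and 14 for the ISG15 system.

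The number of the 66 regions with a peak moved with the depth of the libraries. It was 43.3 ± 3.21 (SD, n = 3) in the mesenteric high group, which was sequenced deepest, and 31.7 ± 3.21 in the mesenteric low group. The spleen groups had 33.0 ± 7.21 (low) and 33.0 ± 1.73 (high), and the axillary groups, of lowest depth, had 25.7 ± 1.53 and 28.0 ± 5.57. As a share of all regions of a library the group means stayed between 0.177% and 0.199%, with SDs of 0.00796 to 0.031 percentage points.

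The first comparison of the design, high against low tonic stimulation, found no difference in the presence of peaks at these genes that passed the test. Of the 66 regions, 16 were present in 6 to 12 libraries and were tested over 9 high and 9 low libraries. With adjustment over all 5737 regions tested, 0 of the 16 passed at 0.05, against 0.0% of all regions. At an unadjusted p under 0.05 by Fisher's exact test 0 of the 16 passed, against 5.84% of all regions with more peaks in high cells and 0.261% with more in low cells. In 12 of the 16 more high than low libraries had a peak, in 2 fewer and in 2 the same number, and over all tested regions 3683 of 5737 had more in high.

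The smallest p of the 16 was that of a region 828 bp outside Isg20 (chr7:78912386-78912750), called in 8 of the 9 high libraries and 4 of the 9 low ones (exact p = 0.131, adjusted p = 0.811). Its summits held 14 to 23 reads in the high libraries with a peak and 12 to 16 in the low ones. Divided by a scale factor for each library, its summits held 13.6 to 22.4 and 13.2 to 15.8. With only peaks of a −log10 p of at least 10 it was present in 8 high and 2 low libraries (exact p = 0.0152, adjusted p = 0.575). Regions going the other way were the Gbp2 start and the Ifi206 region, each in 3 high and 6 low libraries (exact p = 0.347).

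Within an organ, 4 member regions had a peak in every library of 1 level and in none of the other. In mesenteric nodes these were Ddx58 (chr4:40238804-40239313), Gbp6 (chr5:105293617-105293941) and the Ifi204 region (chr1:173802713-173803032), each in 3 of 3 high and 0 of 3 low libraries. They were 3 of 8 member regions present in 3 of the 6 mesenteric libraries, against a background of 39.0% of all such regions, and 0 of the 8 went the other way (background 0.675%). The mesenteric high libraries were also the deepest, at 16.5 to 16.6 reads per 10 kb against 11.7 to 12.6 in the low ones, and the part of depth in these 3 regions was not tested. The Ddx58 summits held 19, 17 and 20 reads in the mesenteric high libraries before scaling (14.6, 13.1 and 15.1 scaled). The region was also present in 3 of 3 spleen low libraries with 11, 10 and 12 reads (10.8, 10.2 and 12.7 scaled). In spleen the Ifi206 region was present in 3 of 3 low and 0 of 3 high libraries, as 1 of 6 member regions present in 3 of 6 spleen libraries (background 4.52% in this direction and 9.66% in the other). In axillary nodes 0 of 4 such regions split by level (background 10.1% and 3.88%). Libraries of 3 against 3 cannot give an exact p below 0.1, so these are descriptions.

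Where every library had a peak, its height was compared through the summit reads, the whole number of reads stacked over the highest point of the strongest peak, divided by a scale factor for each library. Of the 11 member regions present in all libraries, 10 had such a value in every library. They were among the 8442 regions fitted by limma. The 7440 bp distant Dtx3l region was not fitted, because 1 summit could not be given back. Members entered this comparison because they were present in all libraries, so it says nothing of the other 55.

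High and low cells did not differ at any of the 10 regions by limma after adjustment over 8442 regions (0 called, against a background of 1.39%). At an unadjusted p under 0.05 there were 2, against a background of 13.7%. The 10 high minus low differences, on the log2 scale, lay between -0.18 and 0.33, with 7 above and 3 below 0, and their median was 0.06, against 0.000485 over all regions fitted. The 95% intervals reached from -0.41 at the lowest to 0.57 at the highest, so changes of 2-fold in either direction lay outside all of them. On simulated reads limma called 94% of 2-fold decreases and 100% of 2-fold increases in this comparison. Those reads carried counting noise alone and passed through no peak calling, so these shares may not hold for the called peaks.

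**Figure D3:**
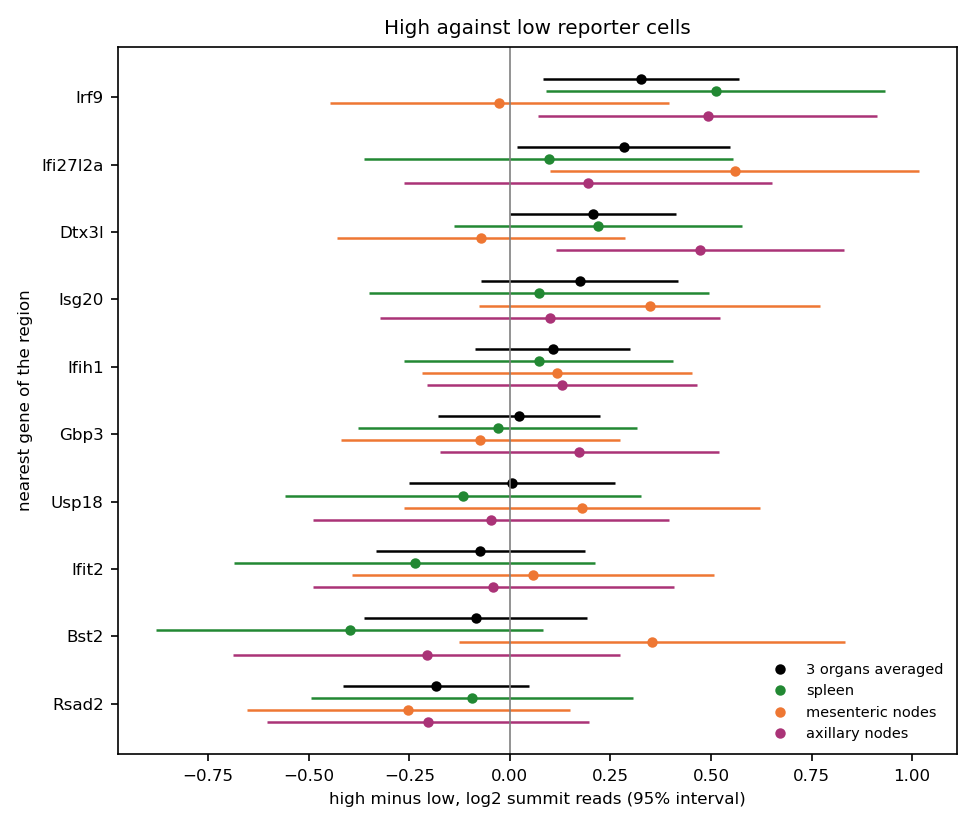
High minus low difference in log2 summit reads (horizontal axis) at the 10 regions present in all libraries (vertical axis, nearest gene), averaged over the 3 organs (black) and in each organ, with 95% intervals from limma. The averaged points run from -0.18 at Rsad2 to 0.33 at Irf9, and no point passed the adjusted threshold.

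The region with the smallest p was the Irf9 start. Its scaled summit reads were 17.7, 17.3 and 12.7 in spleen low libraries and 22.8, 20.4 and 24.4 in spleen high ones. In axillary nodes they were 15.5, 13.6 and 17.4 in low and 18.9, 23.0 and 23.3 in high libraries. In mesenteric nodes the values were 15.8, 25.6 and 26.6 in low and 30.8, 20.8 and 15.9 in high libraries. The levels did not overlap in spleen and axillary nodes and overlapped in mesenteric nodes. The averaged difference was 0.33 ± 0.12 (SE) on the log2 scale (limma, adjusted p = 0.18), and the test of whether it differed between organs gave an adjusted p of 0.604.

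At Ifi27l2a the averaged difference was 0.28 ± 0.13 (SE; limma, adjusted p = 0.32). Its scaled summit reads were 10.8, 11.8 and 13.8 in mesenteric low libraries and 18.5, 16.2 and 18.9 in mesenteric high ones, with no overlap. The mesenteric difference was 0.56 ± 0.23 (limma, adjusted p = 0.242). In spleen and axillary nodes the levels of this region overlapped.

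The region beside Dtx3l held 22.1, 24.9 and 19.7 scaled summit reads in axillary low libraries and 34.7, 32.6 and 25.6 in axillary high ones. These did not overlap, and the difference was 0.47 ± 0.18 on the log2 scale (limma, adjusted p = 0.343). Rsad2 had the lowest averaged difference, -0.18 ± 0.12 (limma, adjusted p = 0.504), with 15.1 to 31.5 scaled reads in low and 15.8 to 22.4 in high libraries. The Gbp3 start had a difference of 0.02 ± 0.10 (95% interval -0.18 to 0.22), and its values ran from 21.5 to 32.4 in low and from 22.3 to 40.1 in high libraries.

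Taken organ by organ, 0 of the 10 regions passed the adjusted threshold by limma in spleen (background 0.213%), 0 in mesenteric nodes (1.54%) and 0 in axillary nodes (0.32%). At an unadjusted p under 0.05 there was 1 in spleen, 1 in mesenteric nodes and 2 in axillary nodes, against 8.69%, 12.8% and 9.75% of all regions. High libraries lay above low ones without overlap at 1 of 10 regions in spleen (Irf9, background 7.06%), at 2 in mesenteric nodes (Isg20 and Ifi27l2a, background 9.77%) and at 2 in axillary nodes (Irf9 and Dtx3l, background 6.78%). Low libraries lay above high ones at 0 of 10 in each organ (7.11%, 11.0% and 5.92%). The differences between high and low were themselves compared between organs, and 0 of 10 regions passed (background 0.261%), with 0 at an unadjusted p under 0.05 (background 10.6%).

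**Figure D4:**
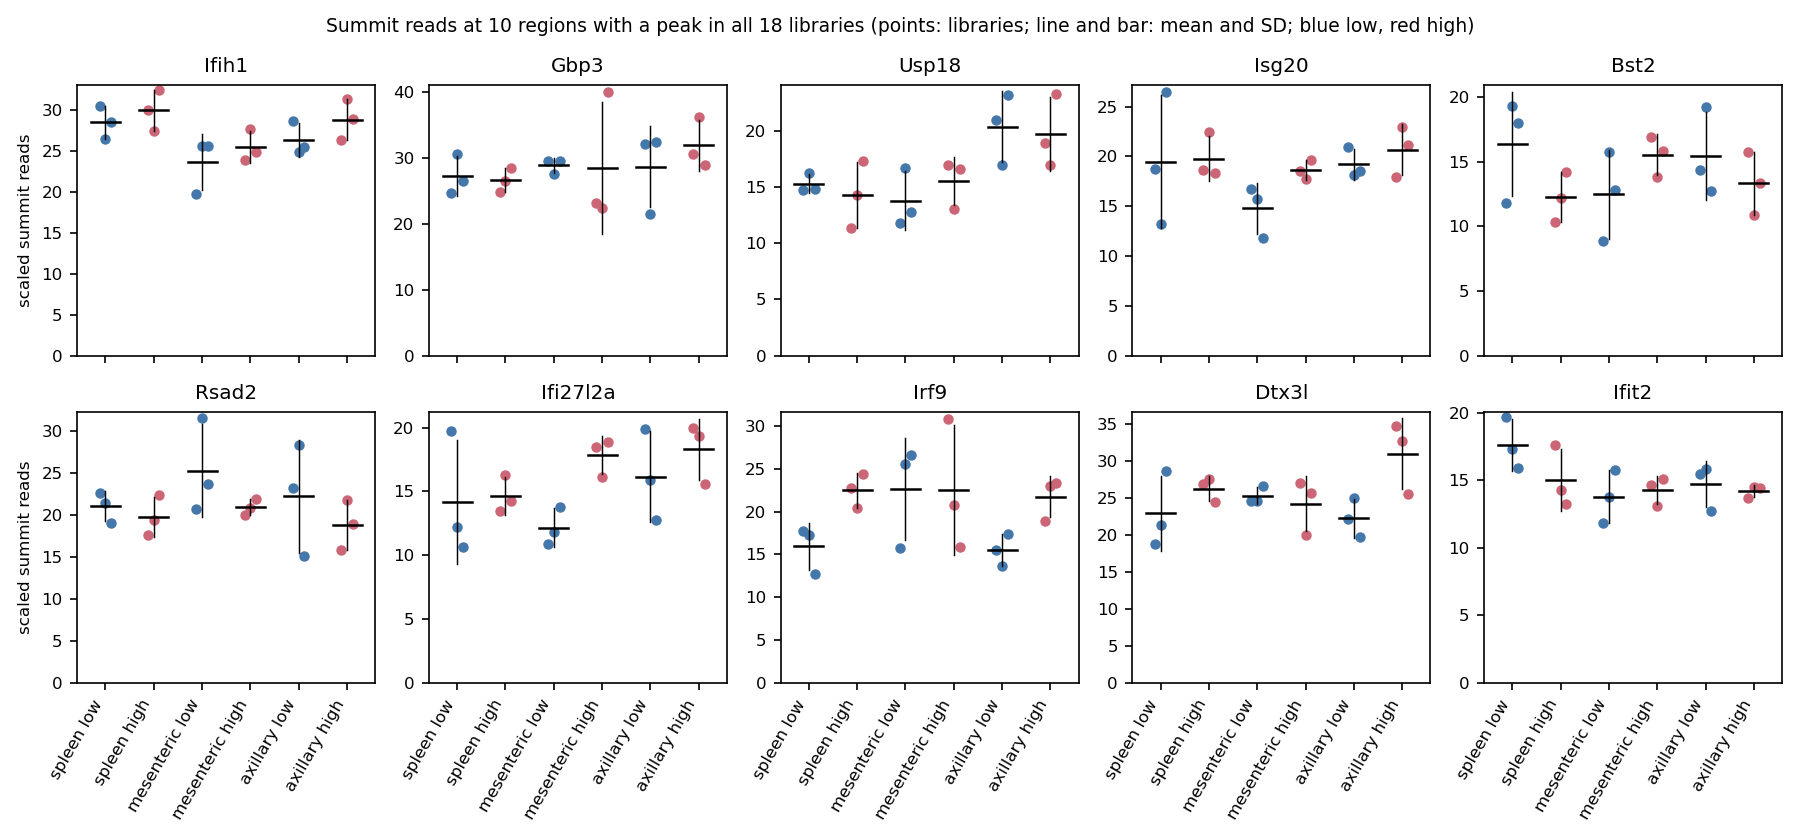
Scaled summit reads (vertical axis) at the 10 regions, 1 panel per nearest gene, in the 6 groups of 3 libraries (points, blue for low and red for high), with the mean (horizontal line) and SD (vertical line). The Usp18 panel shows 16.9 to 23.3 in axillary libraries and 11.4 to 17.3 elsewhere, and the Irf9 panel shows high above low without overlap in spleen and axillary nodes.

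The second comparison, between organs, called 1 of the 10 regions, against a background of 13.7% of all regions. This was the region 1604 bp beyond Usp18, with 16.9, 20.0 and 23.3 scaled summit reads (lowest, median and highest of 6) in axillary nodes. Spleen had 11.4, 14.8 and 17.3 and mesenteric nodes 11.8, 14.9 and 16.9. Axillary libraries were thus high, with the lowest 2 within the range of the other organs. The axillary mean was 20.1 ± 2.89 (SD, n = 6), against 14.8 ± 2.02 in spleen and 14.7 ± 2.34 in mesenteric nodes, a log2 difference of 0.44 ± 0.16 (SE) and 0.45 ± 0.16 (limma, adjusted p across organs = 0.0469).

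The Usp18 call stood close to the threshold: the adjusted p was 0.0535 with scaling by background depth and 0.0833 on the authors' fold, and leaving out 1 library ended the call in 13 of 18 cases (limma, adjusted p 0.0327 to 0.157). The call was kept only when the library left out was spleen low 2, spleen high 3, mesenteric low 2, axillary low 2 or axillary high 2. The only axillary library with short fragments, high replicate 2, held 16.93, next to 16.99 in the long-fragment axillary low replicate 2. The long-fragment spleen low replicate 3 held 14.84, against a spleen median of 14.81. The part of fragment length in the result was not tested. Among the other 9 regions the smallest adjusted p across organs was that of Ifih1 at 0.25, with means of 29.3 ± 2.19 in spleen, 24.6 ± 2.69 in mesenteric nodes and 27.6 ± 2.49 in axillary nodes (SD, n = 6). Rsad2, at an adjusted p of 0.55 on summit reads, was called on the authors' fold (limma, adjusted p = 0.00878), and with scaling by background depth Rsad2 and Irf9 were called (limma, adjusted p = 0.046 and 0.0293).

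Presence across organs was tested at 22 member regions, each with a peak in 5 to 13 libraries. After adjustment over 7630 regions 0 passed the exact Fisher-Freeman-Halton test, against 0.0% of all, and 2 had an unadjusted p under 0.05, against 11.2% of all regions. The count of 2 in 22 is no more than the share over all regions. Both regions lie in the chromosome 16 neighbourhood of Parp14, Dtx3l and Parp9. The Parp14 region had a peak mainly in mesenteric nodes, while the Dtx3l start lacked one mainly in axillary nodes, which had the lowest depth. The Parp14 region had a peak in 6 of 6 mesenteric, 1 of 6 spleen and 1 of 6 axillary libraries (exact p = 0.00452, adjusted p = 0.178). Before scaling its summits held 11 to 23 reads in mesenteric libraries, 13 in the spleen library and 14 in the axillary one. The Dtx3l start region had a peak in 6 of 6 mesenteric, 5 of 6 spleen and 1 of 6 axillary libraries (exact p = 0.0118, adjusted p = 0.28). Neither kept an unadjusted p under 0.05 once reads were thinned to the depth of the shallowest library (exact p = 0.527 and 0.11). The neighbouring region 774 bp from Dtx3l, present in all 18 libraries, had means of 24.6 ± 3.87 in spleen, 24.8 ± 2.52 in mesenteric nodes and 26.6 ± 5.91 in axillary nodes (SD, n = 6; limma, adjusted p across organs = 0.818).

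**Figure D5:**
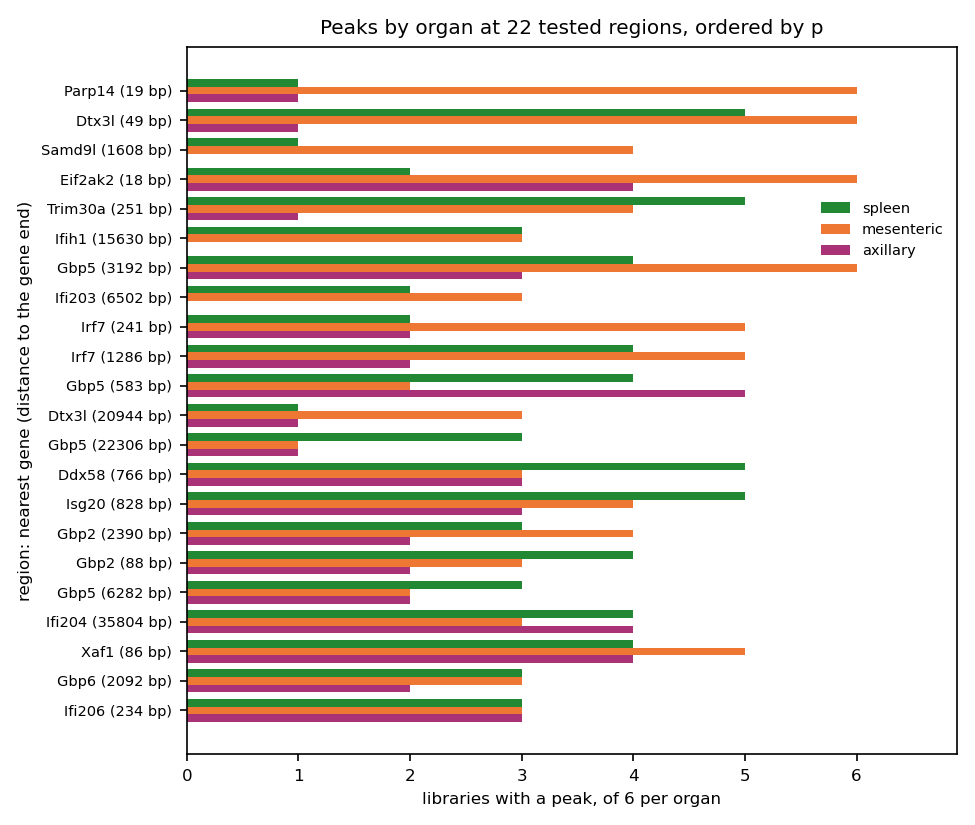
Number of libraries with a peak, of 6 per organ (horizontal axis), at the 22 member regions tested across organs (vertical axis, ordered by the exact p, labelled with the nearest gene and distance). The top bars show Parp14 at 1 spleen, 6 mesenteric and 1 axillary library and the Dtx3l start at 5, 6 and 1.

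The rest of the interferon pathway was described with 3 further lists. Of the 14 genes of receptors, kinases, STATs and IRFs with a listed start, 11 (78.6%) had a start peak in all 18 libraries, among them Ifnar1, Ifngr1, Jak1, Tyk2 and Stat2. Of 8 genes of sensors and adaptors 3 did (Mavs, Tbk1 and Ticam1), and of 50 other interferon-induced genes 10 (20.0%) did. The start share of the listed 27 genes, 25.9%, lay next to that of the induced genes and below that of the receptor list. In summit reads none of the 16, 4 and 17 regions fitted for these lists passed for high against low after adjustment by limma, and 1, 0 and 0 had an unadjusted p under 0.05, against a background of 1.39% adjusted and 13.7% unadjusted. Across organs 2, 1 and 1 passed: Ifnar1 and Ifngr1, chains of the type I and the interferon gamma receptor, the DNA sensor gene Aim2, and Rnf213. The background is 13.7% of all regions, so for the lists of 16 and 17 regions these counts are no more than the share over all regions.

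Ifnar1 was lower in axillary nodes than in spleen by a log2 difference of -0.51 (limma, adjusted p across organs = 0.0123), and Ifngr1 lower in axillary than in mesenteric nodes by -0.37 (limma, adjusted p = 0.0223). Aim2 was higher in axillary than in mesenteric nodes by 0.62 (limma, adjusted p = 0.00511) and Rnf213 lower by -0.71 (limma, adjusted p = 0.0131). In presence, an Ifnar2 region with a peak in 8 high and 2 low libraries (exact p = 0.0152, adjusted p = 0.493) and an Irf2 region with 3 and 8 (exact p = 0.0498, adjusted p = 0.749) were the ones of these lists at an unadjusted p under 0.05 for high against low. Across organs 2 regions of each list had an unadjusted p under 0.05 in presence, and none passed after adjustment. The smallest p was that of a Tlr3 region with a peak in 0 spleen, 6 mesenteric and 1 axillary library (exact p = 0.00113, adjusted p = 0.113).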

How the data were processed

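ATAC-seq libraries came from cells opened by hypotonic lysis, per the labels' protocols. Trimmomatic 0.33, Bowtie2, bedtools and MACS are named in the submitters' processing notes with build mm10; the sources used here do not state caller options, duplicate handling or read shifting. The authors deposited 1 peak list per library (not pooled) with a fold enrichment, a −log10 p, a −log10 q and a score per peak; the deposited score, the whole part of a multiple of the −log10 p, was not tested. Folds and −log10 p values are the authors' and describe, rank or filter peaks inside their own list. Of 314829 peaks 404, off the main chromosomes, were left out.

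The fold is (pileup + 1)/(background + 1) and p a Poisson tail, so the summit pileup could be given back as a whole number within 0.002 for 99.3% of peaks. It was scaled by the median ratio over 8442 regions with a value in all 18 libraries. Groups and replicate numbers came from the titles. Presence was tested by exact tests, two-sided, on counts of libraries. Log2 scaled summit reads were tested by limma 3.58.1 in R 4.3.3 with 6 group means. Both used Benjamini-Hochberg adjustment over all regions at 0.05. The spread behind the limma p-values and intervals came mostly from a trend over all fitted regions (99.4 prior against 12 residual degrees of freedom). Pairs of libraries differed by a chi-square per region of 0.511 to 0.632 within groups and 0.621 to 0.938 between groups. All pairs lie below counting noise. Summits are selected maxima, so this measure can neither mark nor clear a pair as a repeat deposit, and all libraries were kept as separate samples as labelled. Genes came from RefSeq GRCm38.p6 (21631 protein-coding genes). Planned distances to starts were limited to genes in the promoter table, since the gene table gives no strand. No genome was used here, so no sequence was searched outside promoter windows.

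All listed genes were accounted for. Named with values were start or nearest regions, regions past a threshold, regions at an unadjusted p under 0.05 for presence or split 3 of 3 against 0 of 3 in an organ, and up to 3 examples per pathway list by p. Other regions are named after their values were seen. The genes and lists were chosen with earlier results of these data known. Alternatives covered peak lists of equal length or depth, a stricter threshold, overlap, distance, scaling, the authors' fold, the filter, a replicate block and each library left out. Fits within short-fragment libraries were added after seeing the data, since the planned spleen and mesenteric fit assumed a split that the libraries did not show. The limma script, tested on simulated reads over 8442 regions, made 3 false calls.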

Additional observations from a re-analysis of the deposited data

Results flagged for a closer look

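At the 10 regions present in all libraries, 50 sets of libraries (3 organs and 2 levels per region) were checked for a single library far from the others in scaled summit reads, and 3 stood out. Chance gives about 1 in 20, so this is close to the number chance gives. At the Rsad2 start, mesenteric low replicate 2 held 31.51, against a median of 21.35 and a next value of 23.66 in mesenteric nodes. At the region 774 bp from Dtx3l, mesenteric high replicate 2 held 20.01, against a median of 25.16 and a next value of 24.61. At the Ifit2 start, spleen high replicate 1 held 17.58, against a median of 14.44 and a next value of 15.12 among high libraries.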

How the results depend on the processing

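Counts of member regions are given here under other settings. Presence at an unadjusted p under 0.05 for high against low went from 0 regions to 1 at equal depth and 1 with the stricter threshold (Isg20, 828 bp outside), and to 0 to 1 with 1 library left out (1 without spleen low 1, spleen low 2, mesenteric low 3 or axillary low 2). Across organs it went from 2 to 1 (peak lists of equal length) and 0 (equal depth), and to 2 to 4 with 1 library left out (4 without spleen low 2, spleen low 3, spleen high 3, mesenteric low 1 or axillary low 1). Equal list length called the Dtx3l region at 7440 bp, the stricter threshold that region and Gbp5, and the rule of 50% overlap the Dtx3l start and Adar. Neither Parp14 nor the Dtx3l start was called at equal length (exact p = 0.527 and 0.28) or with the stricter threshold (0.236 and 0.576).

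Summit reads across organs called 2 regions with scaling by background depth in place of 1, and 0 to 1 with 1 library left out. The filter of 2 libraries per group gave Usp18 an adjusted p of 0.0505 by limma. With this filter the 1 region called across organs was the Dtx3l region at 7440 bp (limma, adjusted p = 0.0244), which the main fit had left out. The adjusted counts of summit reads for high against low stayed at 0 under every alternative run. Differences near 0 changed sign: Usp18 to -0.01476 by background scaling, Bst2 to 0.01132 on the authors' fold and 0.01903 within short-fragment libraries, and Gbp3 to -0.06063 within short-fragment libraries. With 1 library left out Gbp3 ran from -0.0685 to 0.07214 and Usp18 from -0.04371 to 0.05678. The cause of these changes was not tested.

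Deviations of same-numbered libraries correlated at -0.03 to 0.0401, and those of libraries with other numbers at -0.0662 to 0.0341. Median summits held only 13 to 16 reads, so counting noise can hide a shared animal or sort. Whether same-numbered libraries were paired thus stays unknown. A replicate block left the count across organs at 1 (Usp18, adjusted p = 0.0464) and all other counts at 0. With gene ends within 10 kb the list had 53 regions and with 100 kb 68, with the same counts of calls. The same 10 regions were fitted at each distance. The 2 regions at an unadjusted p under 0.05 for presence across organs lay 19 and 49 bp from a gene end. The 100 kb limit added no tested region, so neither limit could change a count.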
